A study of Mus musculus with 2 samples.

Results

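The cells described here are the Arg1-expressing macrophages of mouse glioblastoma grown in the brain, 262 of 54574 cell barcodes that passed quality control. A barcode was counted as an Arg1 macrophage where it held at least 2 unique molecular identifiers (UMIs, counted RNA molecules) of Arg1 and at least 3 of the macrophage genes C1qa, C1qb, C1qc and Cd68 together. It also had to hold 0 UMIs of the microglia genes P2ry12, Tmem119 and Siglech, and at most 3 of Olig1, Olig2 and Ptprz1, which the tumor cells express. These values chose the members, so these 11 genes are given below as description only. Of 905 barcodes with at least 2 Arg1 UMIs, 275 were kept out by the microglia clause alone, 70 by the tumor-gene clause alone and 57 by the macrophage clause alone.

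Arginase 1, the enzyme that Arg1 encodes, splits arginine into ornithine and urea. Macrophages that carry it draw down the arginine that T cells need to divide, and ornithine feeds the synthesis of polyamines and of proline for collagen. In tumors such macrophages are commonly described as monocyte-derived, and Arg1 is widely used as a marker of an immunosuppressive state.

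The tumors came from mGSC, a glioblastoma stem cell line with Trp53+/- and Nf1+/- genotype, injected into the right striatum of C57BL/6 mice. Both groups therefore carried the same tumor genotype in hosts of the same strain. One group was gavaged daily with vehicle. The other received Xevinapant, a SMAC mimetic that blocks the inhibitor of apoptosis proteins cIAP1, cIAP2 and XIAP, which Birc2, Birc3 and Xiap encode. Single cells of the collected tumors were profiled with a probe-based 10x assay, 1 pool of 4 count matrices per group, and the labels give the pools different dates and different molecule types. Treatment and pool therefore cannot be told apart. File names of the Xevinapant matrices read vehicle, GEO's label was followed over them, and an exchange of the 2 labels would turn every treatment direction below. Macrophage barcodes of the rule, with or without Arg1, numbered 994 of 24050 in the pool labelled Xevinapant and 452 of 30524 in the pool labelled vehicle. The tumor line is a single engineered line, and the hosts' own immune cells were present. The hosts were female and bought at 6 to 8 weeks of age, while their age at collection is not given in the sources used here.

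Some matrices of a pool were nearly alike. In their malignant barcodes, over 5000 genes, vehicle matrices 1 and 3, Xevinapant 1 and 2, and Xevinapant 3 and 4 had a mean squared z of 1.55 to 4.26 for the difference of their levels, where sampling noise alone gives 1, against 14.3 to 63.8 for the other pairs of the same group. Joined pairs were counted as 1 sample, which left 3 vehicle samples (vehicle 1 and 3, vehicle 2, vehicle 4) and 2 Xevinapant samples (Xevinapant 1 and 2, Xevinapant 3 and 4). Values below are given in this order. The design called for 4 mice in each group, but nothing in the labels ties a matrix to a mouse, and the spread between these samples may be partly technical. The samples held 7135 to 15182 barcodes past quality control, with a median of 8032 to 13285 UMIs.

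The Arg1 macrophages numbered 32, 9 and 4 in the vehicle samples and 168 and 49 in the Xevinapant samples. Their summed UMIs were 138850, 66314, 13232, 1221636 and 389077. The 9 and 4 barcodes of vehicle 2 and vehicle 4 carry little weight, and 1 UMI in the 4 barcodes of vehicle 4 equals 75.6 CPM (counts scaled to 1000000 per sample and class). Of the 262 barcodes, 5 had a full barcode that was also found in the other pool, 76 shared a droplet barcode with another matrix of their pool, and 8 were among the highest doublet scores.

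The level of Arg1 differed widely among the members. A barcode held between 2 and 441 Arg1 UMIs with a median of 10, and 133 of the 262 held 10 or more. Summed per sample, Arg1 stood at 3796, 1252, 1285, 5297 and 4259 CPM. The members' own depth ran from 565 to 45201 UMIs with a median of 5417, against 1874 for the 1105 macrophage barcodes with no Arg1 UMI, which passed the other clauses. A rule of 2 UMIs favors deep barcodes. The tests below use levels scaled to the summed counts, which does not undo that choice.

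The macrophage label could be checked only on genes outside the rule. Csf1r, the receptor for the growth factor that macrophages depend on, was found in 76.7% of the Arg1 macrophages, Adgre1, which encodes F4/80, in 59.2% and Ms4a7, a membrane protein of macrophages, in 63.4%. Malignant barcodes were chosen by at least 10 UMIs of Olig1, Olig2 and Ptprz1 together. They also had to hold 0 UMIs of C1qa, C1qb, C1qc, Cd68 and the leukocyte gene Ptprc. In them, although deeper, the shares were 2.40%, 1.46% and 2.89%. Barcodes with such leukocyte RNA had been left out in advance, so these low shares do not check the label. Microglia barcodes, at a median of 7222 UMIs against 5417, held these genes in 85.2%, 77.5% and 79.7%, so none of the 3 sets the Arg1 macrophages apart from microglia, and that separation rests on the 0 UMIs the rule asks of P2ry12, Tmem119 and Siglech. Hmox1, Thbs1 and Fn1 had been named as further markers of these cells with earlier results of these data known, and their values are no independent support for the label.

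Arg1 was not limited to the members. The 275 barcodes kept out by the microglia clause alone are more than the 262 members, and with up to 2 microglia UMIs allowed the Arg1 share of macrophage barcodes was 14.6%, 10.1% and 3.24% in vehicle 1 and 3, vehicle 2 and vehicle 4. It was 32.1% in Xevinapant 1 and 2 and 10.6% in Xevinapant 3 and 4, where a joined sample's share is the mean of its matrices. The microglia barcodes named here were themselves defined by 0 Arg1 UMIs. In the neutrophil barcodes Arg1 was rare, and so it was in the malignant barcodes, which were chosen to hold no C1q, Cd68 or Ptprc UMI. At least 1 Arg1 UMI was found in 2.75% of 18937 malignant barcodes and at least 2 in 0.169%, at a median of 15155 UMIs per barcode. In 197 neutrophil barcodes, at a median of 1564 UMIs, the shares were 5.08% and 2.03%. How much of this is free RNA, doublets or the cells' own RNA was not tested. Several genes described below were common in malignant barcodes too, at 97.7% of Arg1 macrophages and 47.6% of malignant barcodes for Hmox1, 72.9% and 54.8% for Fn1, 96.6% and 44.9% for Plin2, 93.5% and 76.9% for Ctsl, and 48.9% and 43.9% for Pdpn. Others were rare there. Pf4 was found in 83.6% and 2.83%, Ccl7 in 56.5% and 1.67%, Clec4d in 69.8% and 0.528%, Ppbp in 17.9% and 0.475%, and Cxcl3 in 24.1% and 0.111%. Rarity in malignant barcodes, chosen without those leukocyte UMIs, does not make these genes particular to the Arg1 macrophages. Clec4d was found in 68.5% and Cxcl3 in 19.3% of the neutrophil barcodes, and Pf4 in 56.2% and Ccl7 in 14.8% of the microglia barcodes.

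Several genes followed the Arg1 count of a barcode, across the threshold of 2 UMIs. Hmox1, the heme oxygenase that degrades heme, stood at 1909 CPM in the pooled barcodes without Arg1, 4798 CPM in the 79 barcodes with 1 Arg1 UMI, just outside the rule, and 7176 CPM in the 35 barcodes with 2, just inside it. It reached 15860 CPM in the 133 barcodes with 10 or more. Pf4, a chemokine known from platelets, stood at 359, 750.4, 1054 and 4469 CPM in the same 4 sets. Thbs1, which encodes the matrix protein thrombospondin 1, was at 379 and 267 CPM outside the rule, 1005 CPM at 2 Arg1 UMIs and 4394 CPM at 10 or more, so that it stood higher only inside the rule. H2-Ab1, a chain of the antigen-presenting MHC class II molecule, ran the other way, with 1780, 668, 787 and 301 CPM. Fn1 did not follow the count, with 3137, 7141, 3875 and 4867 CPM in the 4 sets and 626 CPM at 3 Arg1 UMIs. The median depth of the 4 sets was 1874, 2253, 3367 and 7100 UMIs, and an Arg1 count depends on depth. These pooled values mix samples of unequal size and carry no test.

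**Figure D1:**
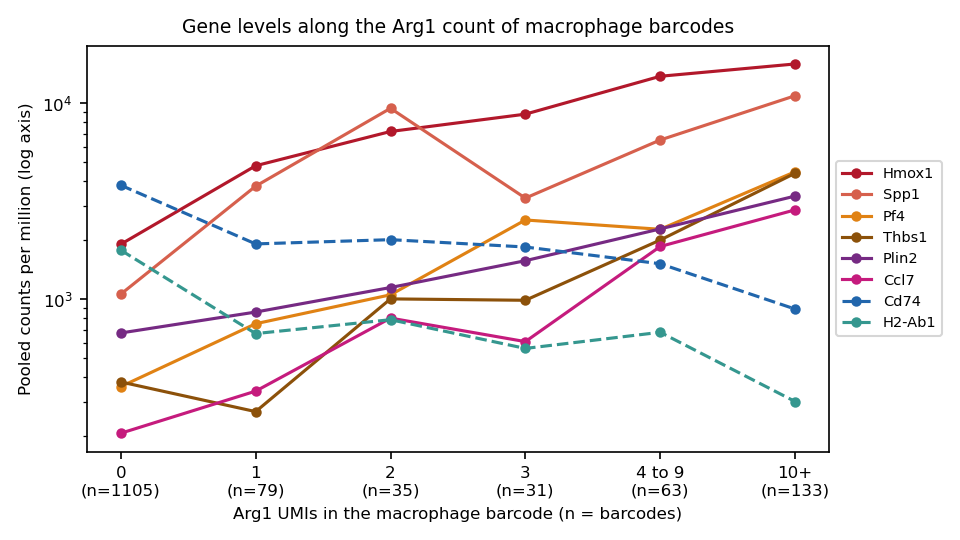
Pooled level (CPM, log axis) of 8 genes in macrophage barcodes grouped by their Arg1 UMI count, with the number of barcodes under each group; the rule takes barcodes from 2 UMIs on. Hmox1 climbs from 1909 to 15860 CPM, while H2-Ab1 (dashed) goes from 1780 to 301 CPM.

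The same genes ordered the members among themselves in some cases. Members with at least 3000 UMIs were split in each sample at the median of their Arg1 level, which gave 9, 60 and 19 barcodes in each set in vehicle 1 and 3, Xevinapant 1 and 2, and Xevinapant 3 and 4. Thbs1 stood at 1688 CPM in the lower and 5013 CPM in the upper set of vehicle 1 and 3, at 1749 and 4737 CPM in Xevinapant 1 and 2, and at 1285 and 8167 CPM in Xevinapant 3 and 4. Pf4 went from 750 to 3742, from 2127 to 5544 and from 2362 to 5153 CPM. F13a1, a clotting factor chain, Ccl7, Cd36 and Fn1 were also higher in the upper than in the lower set of all 3 samples. H2-Ab1 was lower in the upper set of all 3, at 169 and 34, 598 and 343, and 1159 and 54 CPM. Hmox1 was split between samples, with 8757 and 5201 CPM in vehicle 1 and 3 but 6245 and 15084 CPM in Xevinapant 3 and 4, and Spp1 and Gpnmb were split as well. Because the split used a measured gene, it is a description without a test.

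Whether treatment changed how common these cells were was asked first. Arg1 macrophages made up 0.348%, 0.126% and 0.028% of the barcodes in the vehicle samples and 1.89% and 0.322% in the Xevinapant samples. Xevinapant 1 and 2 stood far above the rest, while Xevinapant 3 and 4 lay just under vehicle 1 and 3, so the groups overlapped. The means were 0.167% ± 0.164 (SD, n = 3) and 1.11% ± 1.11 (SD, n = 2), and an exact two-sided permutation test of the difference of 0.941 percentage points gave p = 0.2. The smallest p that 3 against 2 samples allow is 0.1. Without Xevinapant 1 and 2 the difference was 0.155 percentage points, and without Xevinapant 3 and 4 it was 1.73. With each of the 8 matrices as its own tumor, 4 against 4, the exact permutation test gave p = 0.114, and 0.286 for the share among macrophages below.

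Among macrophage barcodes alone, the Arg1 macrophages made up 15.4%, 10.3% and 2.48% with vehicle and 31.7% and 10.5% with Xevinapant. Xevinapant 3 and 4 again lay among the vehicle samples. The means were 9.41% ± 6.51 (SD, n = 3) and 21.1% ± 15.0 (SD, n = 2), and the exact two-sided permutation test gave p = 0.4. The difference of 11.7 percentage points was 1.06 without Xevinapant 1 and 2 and 22.3 without Xevinapant 3 and 4. An Arg1 count depends on depth, so each barcode was also thinned to 3000 UMIs, leaving out shallower ones. The shares of macrophages then read 22.8%, 10.5% and 11.8% against 36.3% and 15.1% (exact permutation test, p = 0.4). Of all barcodes they read 0.326%, 0.105% and 0.0676% against 2.46% and 0.387%, with no overlap and the smallest p the exact permutation test can give, 0.1.

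**Figure D2:**
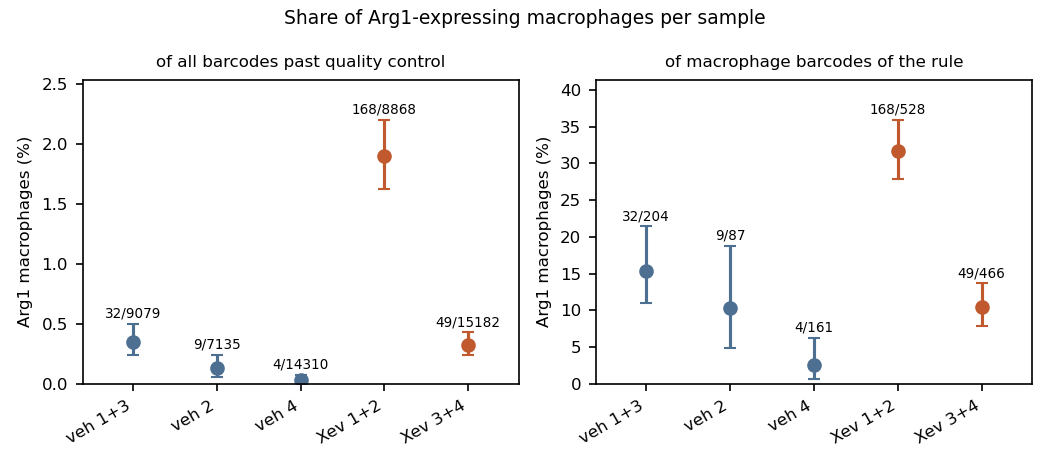
Share of Arg1 macrophages (%) per sample, among all barcodes past quality control (left) and among macrophage barcodes (right), vehicle in blue and Xevinapant in orange; bars are 95% exact binomial intervals, which cover counting error only, and fractions give the summed counts. Xevinapant 1 and 2 stands alone at 1.89% and 31.7%, and Xevinapant 3 and 4 at 0.322% and 10.5% lies within the vehicle range.

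The Arg1 macrophages were then compared with the Arg1-zero macrophages of the same samples, which asks what else the Arg1-expressing cells carry. In a paired edgeR quasi-likelihood fit with Benjamini-Hochberg adjustment, 760 of 8819 genes tested were higher in the Arg1 macrophages (8.62%) and 1225 were lower (13.9%). The median log2 difference over all genes was -0.09. Scaled to library size alone, the median was -0.33 and the split 564 higher and 2029 lower, so lower counts depend on the scaling more than higher ones. The classes also differ in depth. On barcodes with 5000 UMIs or more, 685 genes were higher and 873 lower of 6643 tested by edgeR. Of the 1595 genes called before that were tested again, 1594 kept their direction and 1391 their call. The lists below hold 412 measured genes in 29 sets. They were chosen with earlier results of these data known, so their counts describe these cells and are no independent support.

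The Arg1-zero macrophages held more RNA of other cell types. The summed level of 16 tumor transcripts was 453 to 576 CPM in the Arg1 macrophages and 1541 to 3617 CPM in the Arg1-zero macrophages, with no overlap. Of these, 12 of 14 tested were lower in the Arg1 macrophages. The rule allows up to 3 UMIs of Olig1, Olig2 and Ptprz1 at any depth. Median depth was 5417 UMIs in the Arg1 macrophages and 1874 in the Arg1-zero macrophages, so this gap can follow in part from the rule. The 6 fibroblast genes summed to 15.1 to 923 CPM and to 582 to 5171 CPM, and all 4 tested were lower. The 8 endothelial and mural genes summed to 0 to 86.4 CPM and to 29.5 to 1146 CPM, and 5 of 6 tested were lower. The 10 neutrophil genes summed to 121 to 378 CPM and to 231 to 1222 CPM, and 3 of 5 tested were lower, while 3 of 13 dissociation stress genes were higher and 1 lower. Monocyte genes went the other way, 6 of 13 tested higher, none lower by the same test, at 2141 to 7577 CPM against 773 to 4690 CPM in sum. Of 91 barcodes that met a monocyte definition, 52 also met that of the Arg1-zero macrophages. With these left out of the Arg1-zero macrophages, 868 genes were higher and 1360 lower of 8837 tested by edgeR. Of the 1979 genes called before that were tested again, 1950 kept direction and call. The part of all these transcripts in the differences below was not tested further, but the comparison was repeated on stricter sets. On barcodes with 0 UMIs of Olig1, Olig2 and Ptprz1, in the 4 samples that could be paired, 181 genes were higher (3.36%) and 185 lower (3.43%) of 5391 tested, 6.79% in all. Of the 1135 genes called before that were tested again, 1103 kept their direction and 310 their call. By list, 8 of 14 chemokine, 11 of 20 matrix and 10 of 22 lipid-associated genes were higher there and 8 of 8 MHC class II genes lower, while 2 of 12 heme and iron, 1 of 12 checkpoint and 1 of 10 border macrophage genes were higher and phagocytosis genes stood at 4 higher and 4 lower of 14. The comparison was also repeated on barcodes with at least 10 UMIs of C1qa, C1qb, C1qc and Cd68 in both classes. There 223 genes were higher (3.52%) and 382 lower (6.03%) of 6330 tested, 9.56% in all. Of the 1312 genes called before that were tested again, 1306 kept their direction and 531 their call.

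**Figure D3:**
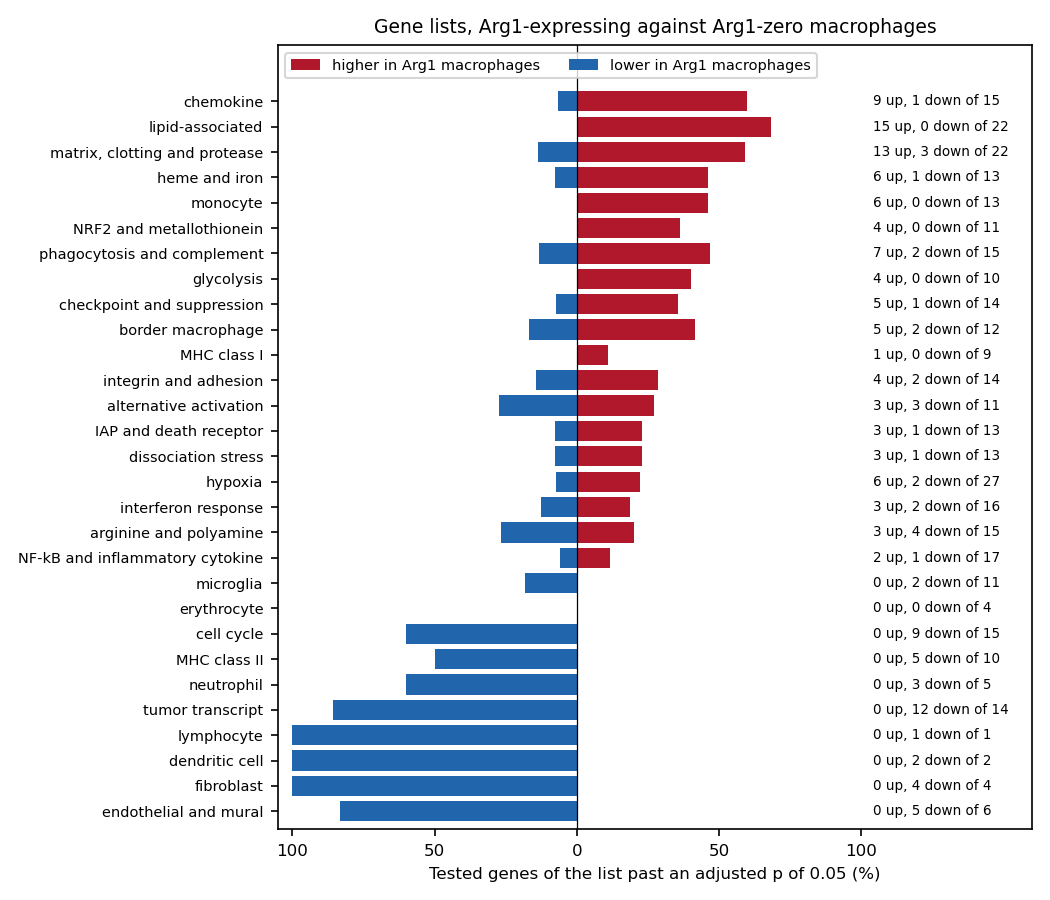
Percent of each list's tested genes that passed an adjusted p of 0.05, higher (red, right) or lower (blue, left) in Arg1 macrophages than in Arg1-zero macrophages, ordered by the list's median difference. Chemokine, lipid-associated and matrix genes lie to the right, with 9 of 15, 15 of 22 and 13 of 22 higher, and 5 of 10 MHC class II genes lie to the left.

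The leading differences by the naming rule were those of Ppbp, Ccl7, Hmox1, Pdpn, Thbs1 and Clec4d. Ppbp, a chemokine precursor that attracts neutrophils, stood at 439, 30.2, 75.6, 346 and 262 CPM in the Arg1 macrophages and at 6.59, 4.92, 9.01, 11.5 and 17.3 CPM in the Arg1-zero macrophages. The classes did not overlap, and the log2 difference was 4.78 (SE 0.34, adjusted p = 2.82e-15). Pdpn, or podoplanin, the ligand of the platelet receptor CLEC-2, stood at 475, 362, 151, 353 and 306 CPM against 54.9, 68.9, 39.0, 52.9 and 30.2 CPM, also without overlap. Its log2 difference was 3.08 (SE 0.29, adjusted p = 2.35e-11). Clec4d, a lectin receptor of myeloid cells, was at 513 to 1360 CPM against 44.3 to 112 CPM, a log2 difference of 3.07 (SE 0.30, adjusted p = 7.99e-11). The leading genes in the other direction were S100a9 of neutrophils, Ighm of B cells, and Igfbp7, Col8a1, Cdh5 and Pdgfrb, which vessel and mural cells express. Their log2 differences lay between -5.48 and -4.47.

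Upstream sequence is shown to place these differences beside the start of each gene. Of the 6 leading genes, Ppbp, Pdpn and Clec4d matched the RefSeq table and Ccl7, Hmox1 and Thbs1 did not, and Cxcl3 was added after its values were seen. The 250 bases before the RefSeq start of each gene (GRCm38.p6) are printed 5′ to 3′ on the gene's strand, with capitals marking a match on either strand to TGACTCA, the AP-1 core, or to ACGTG, the core of the hypoxia response element. The windows are chr5:90768268-90768517 (plus strand) for Ppbp, chr5:90785851-90786100 (plus strand) for Cxcl3, chr4:143299565-143299814 (minus strand) for Pdpn and chr6:123261857-123262106 (plus strand) for Clec4d.
Ppbp: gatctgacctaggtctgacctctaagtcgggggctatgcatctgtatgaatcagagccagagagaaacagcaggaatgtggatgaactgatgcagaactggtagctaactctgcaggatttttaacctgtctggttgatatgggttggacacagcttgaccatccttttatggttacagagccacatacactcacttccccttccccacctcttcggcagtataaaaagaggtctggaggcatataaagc
Cxcl3: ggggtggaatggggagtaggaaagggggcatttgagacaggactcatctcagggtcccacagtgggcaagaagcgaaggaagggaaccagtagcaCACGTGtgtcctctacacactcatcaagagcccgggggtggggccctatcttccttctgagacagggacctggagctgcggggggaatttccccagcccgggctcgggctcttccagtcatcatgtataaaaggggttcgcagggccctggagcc
Pdpn: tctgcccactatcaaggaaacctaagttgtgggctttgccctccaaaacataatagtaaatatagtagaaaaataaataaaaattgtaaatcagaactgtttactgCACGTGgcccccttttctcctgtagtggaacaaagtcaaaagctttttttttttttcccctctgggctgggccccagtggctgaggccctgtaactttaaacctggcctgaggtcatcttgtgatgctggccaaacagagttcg
Clec4d: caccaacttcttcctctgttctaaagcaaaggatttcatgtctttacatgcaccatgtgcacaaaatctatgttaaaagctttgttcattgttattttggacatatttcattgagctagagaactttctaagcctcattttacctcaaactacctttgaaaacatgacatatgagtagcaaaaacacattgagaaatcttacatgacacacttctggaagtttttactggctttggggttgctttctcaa

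Cxcl3 and Pdpn each held the palindrome CACGTG, which contains ACGTG on both strands. The windows of Ppbp and Clec4d held no match to either. Matches to ACGTG are common, and those to TGACTCA less so. TGACTCA was found in 5.97% of the windows of 603 genes that were higher in the Arg1 macrophages, 2.94% of the 7063 tested genes with a window, 2.49% of the windows of 923 lower genes, and 4.43% of all 27025 windows. ACGTG was found in 21.2% of the higher, 22.6% of the tested, 17.8% of the lower and 16.6% of all windows. These shares are descriptions of letters, with no test.

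Chemokines were among the sets that stood highest, with 9 of 15 tested higher, 1 lower and a median log2 difference of 2.0. Ccl7, which recruits monocytes through CCR2, stood at 2586, 332, 378, 2354 and 2241 CPM in the Arg1 macrophages and at 171, 34.5, 114, 356 and 124 CPM in the Arg1-zero macrophages. Within every sample the Arg1 macrophages were the higher, by a log2 difference of 3.44 (SE 0.46, adjusted p = 1.89e-07). Ccl2, another CCR2 ligand, was at 1750, 90.5, 75.6, 1573 and 1696 CPM against 96.6, 14.8, 87.0, 163 and 123 CPM. In vehicle 4 the order was turned, and the log2 difference over all samples was 3.47 (SE 0.47, adjusted p = 1.91e-07). Cxcl3, a neutrophil attractant, was at 0 CPM in vehicle 2 in both classes, and elsewhere at 173 to 982 CPM against 0 to 12.8 CPM. Pf4 stood at 2089, 1146, 2192, 3848 and 3637 CPM against 373, 374, 294, 555 and 193 CPM, a log2 difference of 2.90 (SE 0.45, adjusted p = 3.67e-06). Ccl6, Ccl9, Ccl12, Cxcl1 and Cxcl14 rose as well, and Ccl5, an attractant of T cells, was lower at -5.68 (SE 0.54). On barcodes with at least 10 macrophage UMIs, 7 of 15 were higher and 3 lower, and Ccl12 and Cxcl1 had lost their calls.

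Genes of the extracellular matrix, clotting and proteolysis formed the next group, with 13 of 22 tested higher, 3 lower and a median of 1.05. Thbs1 stood at 3385, 558, 756, 3071 and 4629 CPM in the Arg1 macrophages and at 286, 54.1, 432, 516 and 309 CPM in the Arg1-zero macrophages. The classes did not overlap, and the log2 difference was 3.08 (SE 0.51, adjusted p = 9.07e-06). Adam8, a membrane protease, stood at 1966, 2292, 2267, 1658 and 1874 CPM against 334, 300.2, 108, 457 and 232 CPM, without overlap. Its log2 difference was 3.0 (SE 0.40, adjusted p = 1.8e-07). The clotting factor genes F7, F10 and F13a1 rose by 3.25, 2.30 and 1.74 on the log2 scale, and so did the collagenases Mmp8 and Mmp13, by 3.28 and 1.51. Plaur, the urokinase receptor, and Mmp12 rose too, while Vcan, Sparc and Adamts1 were lower. On barcodes with at least 10 macrophage UMIs, 8 of 22 were higher and 1 lower, and F13a1, Mmp12, Vcan and Adamts1 were not called. With the tumor genes at 0 UMIs, Fn1 was called higher, and Plaur, Vcan and Sparc lost their calls.

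Fn1, the fibronectin gene, was not called. It stood at 1332, 1840, 2116, 4755 and 3192 CPM in the Arg1 macrophages and at 1649, 428, 606, 2392 and 4950 CPM in the Arg1-zero macrophages. It was the higher in 3 of 5 samples only, with a log2 difference of 0.84 (SE 0.47, adjusted p = 0.209). Ctsz, a cathepsin that the study used to mark macrophages, was at 1952 to 3091 CPM against 940 to 1801 CPM, with a log2 difference of 0.88 (SE 0.42, adjusted p = 0.131).

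**Figure D4:**
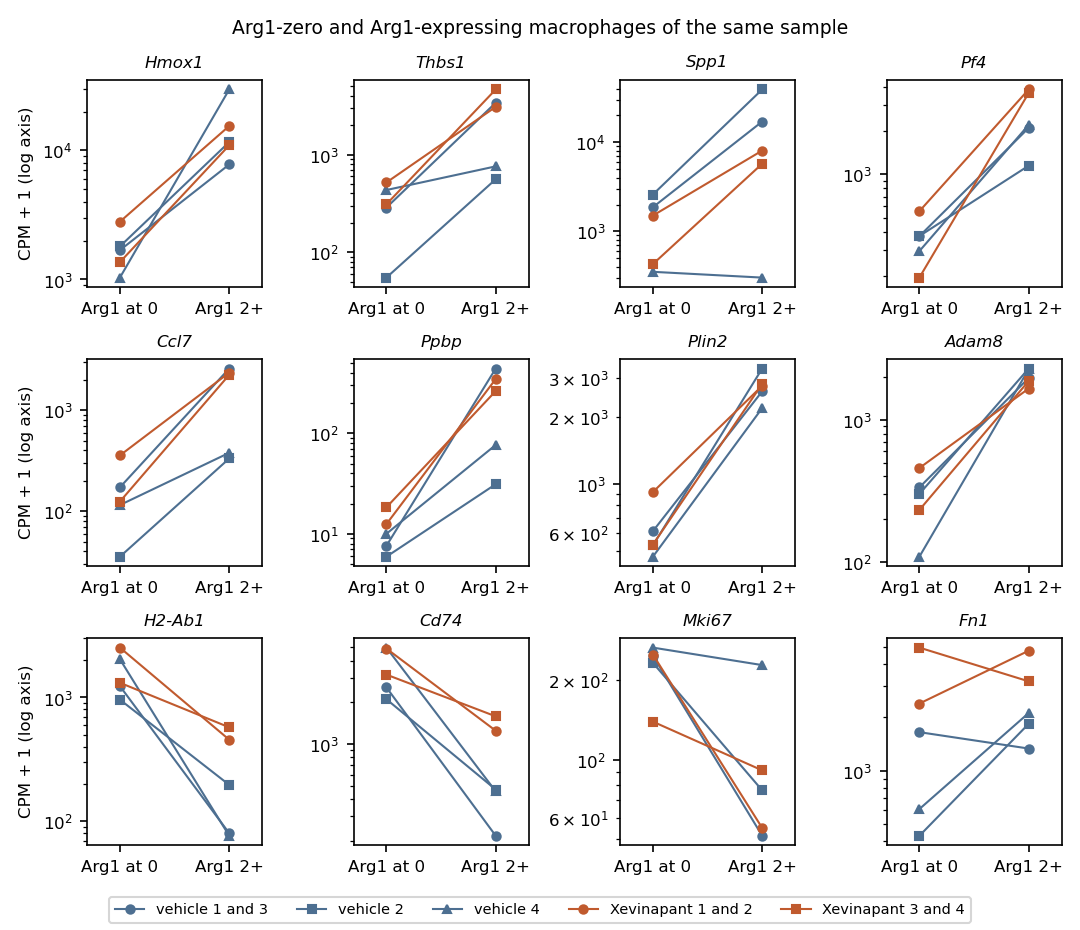
Level of 12 genes (CPM + 1, log axis) in Arg1-zero macrophages (left points) and Arg1 macrophages (right points), a line per sample, vehicle in blue and Xevinapant in orange, with a marker shape per sample. Lines of Hmox1, Thbs1, Pf4, Ccl7, Ppbp, Plin2 and Adam8 climb in all 5 samples, those of H2-Ab1, Cd74 and Mki67 fall in all 5, and those of Fn1 and Spp1 go both ways.

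Lipid handling genes of the kind found in lipid-associated macrophages were the third such group, with 15 of 22 tested higher, none lower by the same test, and a median of 1.21. Plin2, which coats lipid droplets, stood at 2607, 3302, 2192, 2760 and 2817 CPM against 610.5, 527, 468, 916 and 531 CPM. The log2 difference was 2.29 (SE 0.43, adjusted p = 5.45e-05). The scavenger receptors Cd36 and Msr1, which take up modified lipoproteins, rose by 2.72 (SE 0.44) and 2.39 (SE 0.36). Spp1, or osteopontin, stood at 17084, 39162, 302, 8071 and 5747 CPM against 1867, 2594, 351, 1504 and 429 CPM, higher in every sample but vehicle 4. Its log2 difference was 3.04 (SE 0.70, adjusted p = 0.000849). Lgals3, Ctsl, Gpnmb, Trem2, Fabp5, Lipa, Abca1 and Abcg1 rose by 0.82 to 2.44. Of these, Gpnmb, Trem2, Fabp5, Lipa, Abca1 and Abcg1 were no longer called on barcodes with at least 10 macrophage UMIs, where 10 of 22 were higher, and Trem2, Lipa, Abca1 and Abcg1 not with the tumor genes at 0 UMIs either.

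Heme and iron genes showed 6 of 13 tested higher, 1 lower and a median of 1.04. Hmox1 stood at 7786, 11611, 29701, 15479 and 10968 CPM in the Arg1 macrophages and at 1684, 1801, 1033, 2800.2 and 1361 CPM in the Arg1-zero macrophages. Every sample of the first class lay above every sample of the second, by a log2 difference of 3.12 (SE 0.59, adjusted p = 6.69e-05). The heme transporters Slc48a1 and Flvcr1 rose by 1.58 (SE 0.31) and 1.48 (SE 0.26), and Blvrb, which reduces biliverdin, and Slc40a1, the iron exporter ferroportin, by 1.05 and 1.04. Slc40a1 was the higher in the Arg1 macrophages only of the 2 Xevinapant samples and in none of the 3 vehicle samples, with values and their limits given under the interaction. Tfrc, the receptor that brings in transferrin iron, was lower by -1.11 (SE 0.37). Among targets of the antioxidant factor NRF2, 4 of 11 were higher, among them Prdx1 at 1.70 (SE 0.34) and Gclm at 1.38 (SE 0.29). Blvrb and Slc40a1 lost their calls on both stricter sets, Flvcr1 lost its call with the tumor genes at 0 UMIs, and 3 of 12 heme and iron genes were higher on barcodes with at least 10 macrophage UMIs.

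The arginine and polyamine genes did not move together, with 3 of 15 tested higher and 4 lower. Slc7a2, which imports arginine, rose by 1.40 (SE 0.31), and so did Nos2, the nitric oxide synthase that competes for it, by 1.63 (SE 0.36), at low levels of 21.6 to 128 CPM against 15.4 to 31.2 CPM. Asl, of the urea cycle, rose by 0.75. Odc1, which makes putrescine from ornithine, stood at 194, 166, 75.6, 141 and 123 CPM against 334, 369, 324, 239 and 666 CPM, lower in every sample. Its log2 difference was -1.11 (SE 0.31, adjusted p = 0.00615), and the arginine importer Slc7a1 was lower by -1.32 (SE 0.32). Genes of alternative activation were split too, 3 of 11 higher and 3 lower, with Il4ra, Stat6 and Tgm2 higher and Retnla and Mgl2 lower. Asl, Il4ra and Stat6 lost their calls on both stricter sets, and Slc7a2 with the tumor genes at 0 UMIs.

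Glycolysis genes showed 4 of 10 higher and none lower by the same test, and hypoxia genes 6 of 27 higher and 2 lower, with medians of 0.76 and 0.27. Slc16a3, which exports lactate, was at 389 to 756 CPM against 117 to 232 CPM, a log2 difference of 2.05 (SE 0.30, adjusted p = 8.44e-07). Hilpda, which blocks lipid droplet breakdown in hypoxia, and Egln3, an oxygen sensor, rose by 1.67 (SE 0.33) and 1.02 (SE 0.29). Vegfa was at 286 to 756 CPM against 150.1 to 1264 CPM, with a log2 difference of -0.45 (SE 0.35) that was not called. Hif1a and the glucose transporter Slc2a1 narrowly missed the threshold, with adjusted p = 0.0731 and 0.0523.

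Antigen presentation through MHC class II was lower in the Arg1 macrophages, with 5 of 10 tested genes lower, none higher by the same test, and a median of -1.35. H2-Ab1 stood at 79.2, 196, 75.6, 455 and 573 CPM in the Arg1 macrophages and at 1234, 960, 2035, 2524 and 1313 CPM in the Arg1-zero macrophages. The classes did not overlap, and the log2 difference was -2.40 (SE 0.44, adjusted p = 5e-05). Cd74, the invariant chain, stood at 216, 468, 453, 1246 and 1583 CPM against 2565, 2106, 4971, 4893 and 3172 CPM, with a log2 difference of -2.21 (SE 0.49). Ciita, which switches this gene set on, was at 0 CPM in the 3 vehicle samples and at 5.73 and 7.71 CPM with Xevinapant, against 29.5 to 90.5 CPM. It is also a dendritic cell gene, and the 8 dendritic genes summed to 0 to 17.2 CPM against 64.0 to 177 CPM. On barcodes with at least 10 macrophage UMIs, 7 of 9 were lower, with a median of -2.82. MHC class I genes showed 1 of 9 higher and none lower by the same test, and interferon response genes 3 of 16 higher and 2 lower, the latter including the T cell attractant Cxcl10 at -2.76 (SE 0.35).

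Genes of checkpoints and suppression showed 5 of 14 higher and 1 lower. Nt5e, or CD73, which makes adenosine, stood at 64.8, 90.5, 227, 81.9 and 41.1 CPM against 24.1, 24.6, 18.0, 18.5 and 19.6 CPM, without overlap. The log2 difference was 2.0 (SE 0.31, adjusted p = 3.77e-06). Cd274, which encodes PD-L1, was at 75.4 to 378 CPM against 70.3 to 123 CPM, a log2 difference of 0.99 (SE 0.26, adjusted p = 0.00284). Lilrb4a, Cd200r1 and Tnfsf9 rose too, and Nectin2 was lower. Cd274 and Cd200r1 lost their calls on both stricter sets and Lilrb4a with the tumor genes at 0 UMIs.

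Phagocytosis and complement genes stood at 7 of 15 higher and 2 lower, among them the Fc receptors Fcgr1, Fcgr3 and Fcgr4 and the anaphylatoxin receptors C3ar1 and C5ar1. C3ar1 was at 907 to 1620 CPM against 220 to 543 CPM, a log2 difference of 1.91 (SE 0.38). On barcodes with at least 10 macrophage UMIs this list turned to 2 higher and 4 lower of 15, with a median of -0.12, and none of the 3 Fc receptors nor C5ar1 was called. Genes of the macrophages at the brain's borders likewise went from 5 higher and 2 lower of 12 to 1 and 3, with Lyve1 and Cd209f lower and Folr2, which lost its call, higher by the first fit. Cell cycle genes were lower in 9 of 15, higher in none by the same test, with Mki67 at 50.4 to 227 CPM against 138 to 264 CPM and a log2 difference of -1.32 (SE 0.30). The tumor transcripts above were lower in the same direction, and tumor cells divide. The part of that RNA in the cell cycle values was not tested.

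The targets of Xevinapant were near the limit of these counts. Birc2 stood at 28.8, 15.1, 0, 8.19 and 23.1 CPM and Xiap at 14.4, 15.1, 0, 11.5 and 10.3 CPM in the Arg1 macrophages, both too low to be tested. Birc3 was at 14.4 to 227 CPM against 0 to 102 CPM, with a log2 difference of -0.24 (SE 0.34, adjusted p = 0.686). Of 13 tested genes of the inhibitors of apoptosis and death receptor pathway, Cflar, Ripk3 and Casp8 rose by 0.78 to 1.07 and Birc5, a gene of dividing cells, was lower by -1.51. The 3 that rose lost their calls on both stricter sets.

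A comparison with monocytes asks how the Arg1 macrophages differ from the cells macrophages can come from. Monocytes were barcodes with Ccr2 and Plac8, at most 2 UMIs of C1qa, C1qb and C1qc, and no Arg1. They also met the microglia and tumor-gene clauses and held no UMI of the lymphocyte genes Cd3e, Cd3d, Nkg7, Klrb1c and Cd79a. At least 10 barcodes of both classes were found only in the 2 Xevinapant samples, with 48 and 21 monocytes. There 603 of 6622 genes were higher in the Arg1 macrophages (9.11%) and 629 lower (9.5%), and DESeq2 called 147 and 141. The median log2 difference over all genes was 0.00.

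The genes highest above monocytes were Gas6, Igf1, Mmp13, Hbb-bt, Pf4 and Gpnmb. Gas6, a ligand that bridges dying cells to phagocytes, stood at 185 and 306 CPM in the Arg1 macrophages of Xevinapant 1 and 2 and Xevinapant 3 and 4 and at 0 in the monocytes of both. Igf1, a growth factor, was at 115 and 203 CPM and Mmp13 at 148 and 72.0 CPM, also with monocytes at 0. Hbb-bt, a globin of red blood cells, was at 64.7 and 234 CPM against 0, but in vehicle 4, outside the fit, it was at 0 in the Arg1 macrophages and 6947 CPM in monocytes, where the erythrocyte list summed to 28354 CPM. Pf4 was at 3848 and 3637 CPM against 14.1 and 0 CPM, a log2 difference of 8.65 (SE 0.43). Hmox1 stood at 15479 and 10968 CPM against 463 and 398 CPM (5.07, SE 0.30), and Spp1 at 8071 and 5747 CPM against 38.9 and 64.8 CPM (7.35, SE 0.37).

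By list, all 13 tested chemokines and all 10 border macrophage genes were higher in the Arg1 macrophages, as were 18 of 22 lipid-associated, 16 of 26 hypoxia, 8 of 10 glycolysis, 8 of 10 NRF2 and 14 of 22 matrix genes. Their medians lay between 1.11 and 3.68. The monocytes were limited in C1qa, C1qb and C1qc, while the Arg1 macrophages had to hold UMIs of these genes or Cd68. Higher macrophage genes, such as those of the border macrophage and lipid-associated lists, can follow in part from that choice. How large that part is was not tested. Fn1, not called against Arg1-zero macrophages, was at 4755 and 3192 CPM against 3280 and 1702 CPM (0.84, SE 0.24, adjusted p = 0.00566). In the other direction, 10 of 11 MHC class II, 11 of 16 interferon response and 6 of 11 monocyte genes were lower. The monocytes were chosen by Ccr2 and Plac8, so lower monocyte genes follow in part from that choice. H2-Ab1 stood at 455 and 573 CPM against 6067 and 6985 CPM, a log2 difference of -3.54 (SE 0.26). Cd7, Flt1, Ighm, Ciita, Pglyrp1 and Ace led the lower genes, between -9.22 and -5.12. Cd7 and Ighm are lymphocyte genes, and Flt1 is a gene that vessel cells, among others, express. The endothelial and mural genes summed to 1397 CPM in the monocytes of Xevinapant 1 and 2 and to 74.0 CPM in those of Xevinapant 3 and 4. The lymphocyte genes summed to 10.6 and 27.8 CPM in the monocytes of the 2 samples. These barcodes were chosen to hold no UMI of Cd3e, Cd3d, Nkg7, Klrb1c and Cd79a, so low sums follow in part from that choice. The dendritic genes, which include Ciita, summed to 555 and 740 CPM there and to 17.2 and 15.4 CPM in the Arg1 macrophages. Their part in the result was not tested.

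Treatment within the Arg1 macrophages was fitted on samples with at least 10 members, which left vehicle 1 and 3 against the 2 Xevinapant samples and 1 residual degree of freedom. The single vehicle sample has no spread of its own and is assumed to vary like the Xevinapant samples, so the calls below compare these 3 samples and not the treatments in general. In this fit 59 of 7599 genes were higher with Xevinapant (0.776%) and 34 lower (0.447%), 1.22% in all, with a median log2 difference of 0.03 over all genes. With all 5 samples, which leave 3 residual degrees of freedom, 1 gene was called, Nxpe5, with 253 at an unadjusted p under 0.05. The other settings called between 0 and 103.

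MHC class II genes were called higher in the Xevinapant samples than in vehicle 1 and 3 in 4 of 9 tested. H2-Ab1 stood at 79.2, 196 and 75.6 CPM with vehicle and at 455 and 573 CPM with Xevinapant, and Cd74 at 216, 468 and 453 CPM against 1246 and 1583 CPM. The H2-Ab1 value of vehicle 4 rests on 1 UMI. Both genes were higher in the 2 Xevinapant samples than in any vehicle sample, also those left out of the fit. How many of all genes separate the samples as both do, and as Fn1 does below, was not counted. The log2 differences were 2.68 (SE 0.43, adjusted p = 8.34e-06) and 2.70 (SE 0.38, adjusted p = 3.53e-07). With each matrix as 1 tumor they were 2.754 and 2.835, not called by edgeR (adjusted p = 0.1813 and 0.1005). Both genes also lost their calls with the highest Scrublet scores removed and on barcodes with 5000 UMIs or more. H2-Ab1, but not Cd74, lost it by DESeq2 and with the tumor genes at 0 UMIs. With all 5 samples they were not called (2.11 and 2.06, adjusted p = 0.162 and 0.204), and with up to 2 microglia UMIs allowed, a setting that also brings vehicle 2 into the fit, they were 0.77 and 0.31, not called. The fit of all 5 samples also held vehicle 2, with the microglia clause kept. With the clause kept and vehicle 4 alone left out, edgeR called 0 genes, with 449 at an unadjusted p under 0.05. How much each of the 2 changes lowered these genes was not tested further. In every sample both stood below the Arg1-zero level. H2-Eb1 differed by 3.14 (SE 0.49) in the 3-sample fit. Other measures moved with these genes. The monocyte list of 14 genes summed to 4307, 2141 and 5441 CPM in the Arg1 macrophages with vehicle and 5638 and 7577 CPM with Xevinapant, and monocytes of the 2 Xevinapant samples held 29116 and 31881 CPM of MHC class II genes. The members' median mitochondrial share was 0.831%, 0.532% and 0.791% against 0.346% and 0.472%, and their median depth 3569, 5516 and 1520 UMIs against 5689 and 6382. Their part in the result was not tested.

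Mrc1, the mannose receptor, stood at 101, 814 and 227 CPM with vehicle and at 551 and 725 CPM with Xevinapant. It was called in the fit (2.65, SE 0.42, adjusted p = 5.05e-06), but vehicle 2 was the highest of all 5. With all 5 samples the difference was 0.72 (adjusted p = 0.915), and with up to 2 microglia UMIs allowed and vehicle 2 in the fit 0.95 (adjusted p = 0.606). Fn1, at 1332, 1840 and 2116 CPM against 4755 and 3192 CPM, was higher in both Xevinapant samples than in all 3 vehicle samples, with a log2 difference of 1.57 (SE 0.33, adjusted p = 0.00178) that was not called by DESeq2 (adjusted p = 0.127) or with all 5 samples (0.729), and that was 0.40 (adjusted p = 0.802) with up to 2 microglia UMIs allowed and vehicle 2 in the fit. Spp1 had a log2 difference of -1.31 (SE 0.30, adjusted p = 0.00391), at 17084 against 8071 and 5747 CPM, with 39162 and 302 CPM in vehicle 2 and vehicle 4. It was not called with all 5 samples (adjusted p = 0.895), by DESeq2 (0.247), by matrix (0.138), with the highest Scrublet scores removed (0.425) or with Arg1 at 4 UMIs or more (0.144). Hmox1 and Thbs1 were not called, with log2 differences of 0.76 (SE 0.32, adjusted p = 0.356) and 0.18 (SE 0.31, adjusted p = 0.887).

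**Figure D5:**
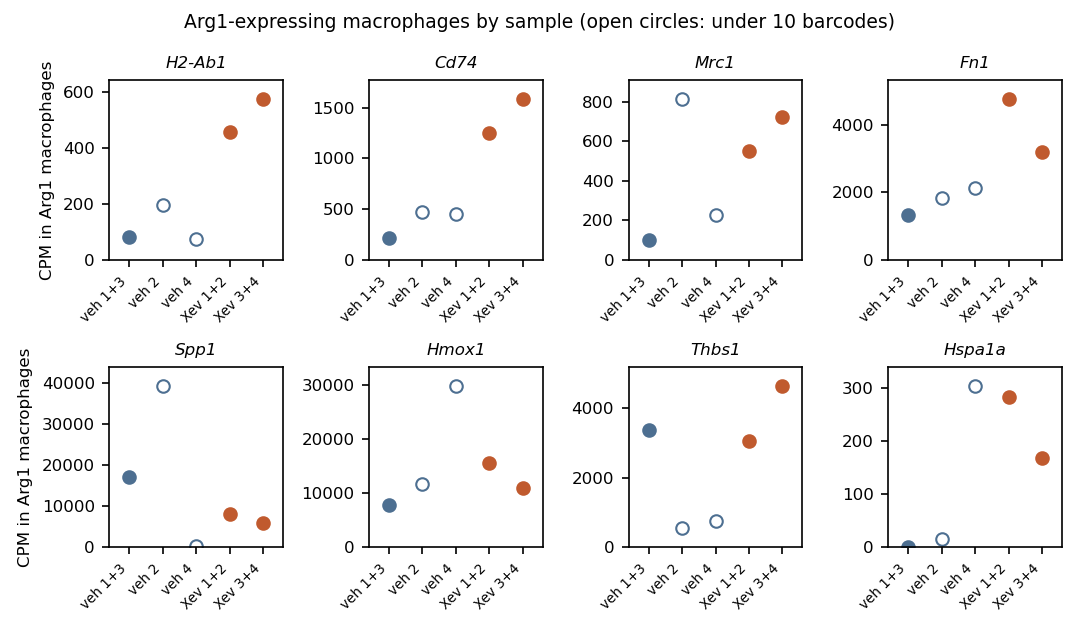
Level of 8 genes (CPM) in the Arg1 macrophages of each sample, vehicle in blue and Xevinapant in orange, with open circles for the samples of 9 and 4 barcodes. H2-Ab1, Cd74 and Fn1 are higher in both Xevinapant samples than in all vehicle samples, while Mrc1, Spp1, Hmox1, Thbs1 and Hspa1a overlap. How many of all genes separate this way was not counted.

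By the naming rule the genes highest with Xevinapant were Hspa1a, Hspa1b, Nxpe5, Saa3, Il1b and Gja1, all at 0 in vehicle 1 and 3. The rule did not use vehicle 2 and vehicle 4, so a place on this list does not mean a level above every vehicle sample. Hspa1a, a heat shock gene that cell dissociation can raise, stood at 283 and 167 CPM with Xevinapant and at 15.1 and 302 CPM in vehicle 2 and vehicle 4. Saa3, an acute phase protein, was at 188 and 61.7 CPM with Xevinapant but at 754 CPM in vehicle 2, so no shared rise can be read from it. The lowest were Acta2, Ifit2, Csf1, H2-Q7, Hscb and Gdf3, from -2.78 to -2.13. Acta2, an actin of smooth muscle, stood at 137 CPM in vehicle 1 and 3, 0 in vehicle 2 and vehicle 4, and 19.6 and 20.6 CPM with Xevinapant. Ifit2, an interferon response gene, was at 295 CPM in vehicle 1 and 3 but at 15.1 and 0 CPM in the other vehicle samples, below the 25.4 and 110.5 CPM with Xevinapant. No shared fall can be read from either. The interferon response list likewise summed to 7087 CPM in vehicle 1 and 3, 3016 and 1134 CPM in vehicle 2 and vehicle 4, and 3410 and 5246 CPM with Xevinapant. Red blood cell genes summed to 353, 15.1 and 0 CPM with vehicle and 819 and 1907 CPM with Xevinapant. In the Arg1-zero macrophages they summed to 52.7, 226 and 5172 CPM with vehicle and 1485.5 and 1517 CPM with Xevinapant. The highest sum there was thus in vehicle 4, so no shared rise can be read from these genes. Their part in the result was not tested. No gene of the inhibitor of apoptosis and death receptor list was called of 14 tested by edgeR, and Birc3 had a log2 difference of 1.36 (SE 0.92, adjusted p = 0.662).

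Whether the groups differed otherwise in Arg1 macrophages than in Arg1-zero macrophages was tested by the interaction term over all 5 samples. It called 4 genes higher (0.0454%) and 5 lower (0.0567%) of 8819, 0.102% in all, with 367 at an unadjusted p under 0.05. None of the 10 tested MHC class II genes was among the 9 called by edgeR, so no difference in their treatment response between the classes was shown. Slc40a1 was the one heme and iron gene among them. It stood at 57.6, 226, 0, 210 and 409 CPM in the Arg1 macrophages and at 152, 271, 45, 91.2 and 74.4 CPM in the Arg1-zero macrophages. It was the higher in the Arg1 macrophages of both Xevinapant samples and the lower in those of vehicle 1 and 3. Vehicle 2 was nearly level, at 226 against 271 CPM. In vehicle 4, 1 UMI of the Arg1 macrophages equals 75.6 CPM, so 0 against 45 CPM gives no direction. The interaction was 2.71 on the log2 scale (SE 0.61, adjusted p = 0.0169 by edgeR). The call was lost with DESeq2 (2.73, adjusted p = 0.9999), by matrix (2.31, adjusted p = 0.95) and when any 1 sample was left out (2.05 to 3.43).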

How the data were processed

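Files were UMI count matrices that the authors deposited, 4 per pool, made with Cell Ranger against mm10 (the file headers name Cell Ranger 7.1.0) and analysed by them in Seurat. Barcodes with at least 200 genes, at most 10% mitochondrial counts and a ratio of log10 genes to log10 UMIs of at least 0.8 were kept. Members and gene lists were chosen with earlier results of these data known. Counts were summed per sample and class and tested with edgeR 4.0.16 (R 4.3.3, limma 3.58.1; TMM, filterByExpr, quasi-likelihood, Benjamini-Hochberg at 0.05), with DESeq2 1.42.0 as an alternative. The 11 genes of the rule stayed in library sizes and out of tests. Genes named were the given markers, the study's macrophage genes and targets, list members, and per comparison the 6 highest and 6 lowest with the same direction in every sample and a mean log2 CPM of at least 5. Scripts were tested on simulated data. Doublets were scored with Scrublet (scanpy 1.11.5) and kept, with removal as an alternative. Shares were averaged over joined matrices and compared by exact permutation. Intervals cover counting error only.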

Additional observations from a re-analysis of the deposited data

Results flagged for a closer look

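In the test of the interaction between treatment and macrophage class, 9 genes were called (edgeR, adjusted p under 0.05). DESeq2 called 0 and the fit by matrix 1. Treatment and pool cannot be told apart, so these are differences between the labelled pools. Values are the log2 difference, Xevinapant minus vehicle, in Arg1 macrophages minus that in Arg1-zero macrophages. Among the negative ones, Ccn2 stood at -7.67 (adjusted p = 7.23e-09), Des at -5.05 (0.0236), Saa3 at -3.82 (0.000351), Tagln at -3.42 (0.0236) and Cd163 at -3.25 (0.0462). Ccn2, Des and Tagln are genes of mural and smooth muscle cells. In the Arg1 macrophages of vehicle 1 and 3 they stood at 79.2, 86.4 and 108 CPM against 0 to 9.82 CPM in both Xevinapant samples. Over all 5 samples the median in the Arg1 macrophages was 0 CPM for Ccn2 and 0.82 CPM for Des. Without vehicle 1 and 3, Tagln turned, to 2.40. Ccn2 reached 453 CPM in the Arg1-zero macrophages of Xevinapant 1 and 2, where the 8 endothelial and mural genes summed to 650 CPM. The part of mural RNA in these results was not tested. Saa3 and Cd163 stood at 754 and 226 CPM in the 9 Arg1 macrophages of vehicle 2 and at 0 in those of the other vehicle samples, and without vehicle 2 both turned, to 6.03 and 5.23. The positive ones were Slc40a1 at 2.71 (0.0169), Sesn1 at 3.79 (0.0236), Nxpe5 at 4.80 (0.00687) and Ifitm10 at 5.35 (0.000351). Sesn1 was at 0 and Nxpe5 at 0 in the Arg1 macrophages of vehicle 1 and 3 and of vehicle 4.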

How the results depend on the processing

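The 93 genes called between treatments within Arg1 macrophages became 7 with each matrix counted as 1 tumor, 36 with library size alone, 3 with DESeq2, 52 with Arg1 at 4 UMIs or more, and 1 with all 5 samples (added after seeing the data). They became 0 by edgeR with the highest Scrublet scores removed, on barcodes with 5000 UMIs or more, and with up to 2 microglia UMIs allowed (added), which also brings vehicle 2 into the fit, where 581, 628 and 519 passed an unadjusted p under 0.05. Leaving out a sample leaves no residual degree of freedom in that fit, nor in the one against monocytes. In the wider fits (added after seeing the data) it gave 0 (without vehicle 1 and 3 or vehicle 4, 353 and 449 at an unadjusted p under 0.05) to 14 calls (without Xevinapant 1 and 2) between treatments with all 5 samples, 3 without vehicle 2 and 2 without Xevinapant 3 and 4, and 371 (without Xevinapant 3 and 4) to 885 against monocytes, 376 without Xevinapant 1 and 2 and 624 without vehicle 1 and 3. The matrix number as a replicate block, on single matrices, called 56, against 7 for single matrices without it. Matrix numbers share no animal in the labels, so the block pairs nothing known. The interaction's 9 calls became 1 by matrix, 0 with DESeq2 (138 passed an unadjusted p under 0.05), 41 with up to 2 microglia UMIs and 19 in samples with at least 10 members (both added), and 2 to 8 without a sample, 2 of them without vehicle 2, vehicle 4, or Xevinapant 3 and 4 and 3 without Xevinapant 1 and 2. Against Arg1-zero macrophages the 1985 calls became 366 with the tumor genes at 0 UMIs, 605 with 10 or more macrophage UMIs (added), and 1095 (without Xevinapant 3 and 4) to 2244 without a sample. They became 1558 on barcodes with 5000 UMIs or more and 2228 with monocyte barcodes left out of the Arg1-zero class (added). Against monocytes the 1232 became 288 with DESeq2, 683 with tumor genes at 0, 744 at 5000 UMIs or more and 779 with every sample that had both classes (added). Share differences ran from 0.155 to 1.73 and from 1.06 to 22.3 percentage points without a sample. Directions turned for Birc3 between classes without Xevinapant 1 and 2 (0.10); for treatment, Saa3 with up to 2 microglia UMIs and vehicle 2 in the fit (-0.73) and with all 5 samples (-1.03), and Hmox1 with all 5 samples (-0.067); in the interaction, Cd163 and Saa3 with tumor genes at 0 (2.98 and 1.74), in samples with at least 10 members (3.90 and 3.03) and without vehicle 2 (5.23 and 6.03, against -4.77 and -7.40 without vehicle 4), and Tagln without vehicle 1 and 3 (2.40). Of 2010 recomputed values for 115 genes named between classes, 1805 kept direction and call and 188 lost the call. For treatment, 130 of 250 values for 22 genes did so, 116 lost the call and 3 turned, and for the interaction 59 of 126 for 9 genes, 60 lost it and 7 turned. Against monocytes 166 of 174 did so. The causes were not tested. The few members in vehicle limit every treatment value.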
